A study of Mus musculus with 3 samples.

Results

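The regions described here are 42987 stretches of the mouse genome that were highly methylated in bone marrow macrophages, lower after 24 h of RANKL and higher again in mature osteoclasts. They were chosen by their measured methylation levels from 82392 regions that the authors' tables listed with the same coordinates both for preosteoclasts against macrophages and for mature osteoclasts against preosteoclasts, and they made up 52.2% of these. A region was a member if its level was at least 80% in macrophages, lower in preosteoclasts than in macrophages, and higher in mature osteoclasts than in preosteoclasts. The level is the number of methylated reads divided by all reads, summed over the cytosines of the region. Because the rule used the levels of all 3 stages, the size of the dip is given below as a description, with no test.

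Methylation was measured by whole-genome bisulfite sequencing, a method that reads a cytosine as methylated when it withstands conversion by bisulfite. The cells came from marrow of femur and tibia of C57BL/6 mice at 11 weeks of age. Marrow was cultured for 24 h, and its floating cells were kept for 72 h in M-CSF, a macrophage growth factor, at 50 ng/mL, which made them bone marrow macrophages (BMM). Preosteoclasts (pOC) were BMM after 24 h with M-CSF at 30 ng/mL and RANKL, the cytokine that drives osteoclast formation, at 100 ng/mL. Mature osteoclasts (mOC) had 72 h or longer in the same mix. The labels name no sort of the cells, and do not give the number or sex of the mice. Each stage had 1 library, so no difference has a replicate check, and the dip of a stage and a property of its single library cannot be told apart. The same pOC library, with the same reads, entered both steps of every region. Cell identity is usually checked by expression, which these libraries do not hold.

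Osteoclasts are multinucleated cells of the macrophage lineage that resorb bone, and they form when precursors stop dividing and fuse. Most CG cytosines of a mammalian genome are methylated in gene bodies and between genes, whereas CG-rich gene starts are usually free of methylation. The maintenance enzyme Dnmt1 copies methylation onto new DNA, the enzymes Dnmt3a and Dnmt3b add it, and the Tet enzymes oxidise it as a step in its removal.

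What such a region looks like is shown where a member overlapped the RefSeq window of a gene start, which runs from 250 bases before the start to 50 bases after it. The stretches below are those shared by the region and the window for 6 genes, 5′ to 3′ in the direction of the gene, from RefSeq's GRCm38.p6. Capitals mark the CG pairs, whose cytosines are the measured ones. Mab21l2, Coq10a, Pmch and 4922502B01Rik were among the members with the most reads in such windows. Tab2 and Gsn were added, after their values were seen, because they are genes of the signalling and cytoskeleton lists. The Mab21l2 stretch (chr3:86548234-86548533, minus strand) holds 14 CG pairs, some of them next to each other near the start, and the other stretches are sparser. The Coq10a stretch is chr10:128369988-128370200 (minus strand), that of Pmch chr10:88090822-88091000 (plus strand) and that of 4922502B01Rik chr8:109249801-109249995 (minus strand). Those of Tab2 and Gsn are chr10:7953201-7953315 (minus strand) and chr2:35282130-35282201 (plus strand).
Mab21l2: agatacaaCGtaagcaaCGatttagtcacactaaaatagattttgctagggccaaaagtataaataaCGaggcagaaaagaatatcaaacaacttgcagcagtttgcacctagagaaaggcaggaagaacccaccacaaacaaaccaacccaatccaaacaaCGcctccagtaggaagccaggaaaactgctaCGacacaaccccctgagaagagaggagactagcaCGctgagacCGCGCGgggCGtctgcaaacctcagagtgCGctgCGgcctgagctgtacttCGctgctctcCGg
Coq10a: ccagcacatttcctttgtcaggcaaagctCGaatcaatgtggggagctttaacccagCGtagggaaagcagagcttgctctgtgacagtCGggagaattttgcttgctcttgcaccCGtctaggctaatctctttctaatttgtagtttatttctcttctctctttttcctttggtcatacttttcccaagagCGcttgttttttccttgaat
Pmch: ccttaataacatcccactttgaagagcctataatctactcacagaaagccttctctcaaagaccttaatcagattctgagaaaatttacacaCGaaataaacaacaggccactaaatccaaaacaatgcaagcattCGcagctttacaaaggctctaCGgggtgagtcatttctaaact
4922502B01Rik: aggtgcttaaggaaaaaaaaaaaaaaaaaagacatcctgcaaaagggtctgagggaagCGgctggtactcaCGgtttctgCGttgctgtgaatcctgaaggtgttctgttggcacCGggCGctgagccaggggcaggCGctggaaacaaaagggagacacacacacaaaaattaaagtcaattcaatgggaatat
Tab2: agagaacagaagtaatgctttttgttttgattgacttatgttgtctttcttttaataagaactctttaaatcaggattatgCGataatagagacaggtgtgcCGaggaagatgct
Gsn: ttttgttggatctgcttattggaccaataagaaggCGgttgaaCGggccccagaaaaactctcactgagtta

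Mab21l2, a developmental gene that lies inside the span of Lrba, had 81.2% in BMM (95% interval 75 to 86.5, 192 reads), 52.6% in pOC (45.3 to 59.9, 190 reads) and 86.3% in mOC (80.8 to 90.7, 204 reads) over 16 CG pairs in 400 bp. Its pOC interval lay below both other intervals, and this was the most CG-rich gene start shown. Coq10a, a gene of coenzyme Q function, stood at 86.9% (79.9 to 92.2), 50.5% (39.9 to 61.2) and 82.0% (74.6 to 88.0). The hormone precursor gene Pmch stood at 88.9% (81.4 to 94.1), 61.4% (50.4 to 71.6) and 93.3% (83.8 to 98.2), in the order BMM, pOC and mOC. In all 3 of these gene starts the mOC interval overlapped the BMM interval. The gene 4922502B01Rik, for which the table gives no function, had 86.9% in BMM (75.8 to 94.2), 40.5% in pOC (31.3 to 50.3) and 69.4% in mOC (57.5 to 79.8). Its mOC minus BMM difference was -17.4 points (95% interval -30.5 to -3.19), so it had regained part of the level. Tab2, an adaptor of the kinase TAK1 in RANK signalling, had 89.4%, 67.1% and 89.7% over 66, 70 and 58 reads. Gsn, which encodes the actin-severing protein gelsolin, had 89.1%, 64.6% and 84.7% over 46, 48 and 59 reads. The remaining 2 of the 6 most-read gene starts had 65.9% in pOC in the zinc finger gene Zfp783 and 58.8% in the actin-like gene Actbl2. The rule required a pOC level below both other stages in every member. All intervals on levels are exact Clopper-Pearson intervals and those on differences are Newcombe intervals. They cover counting error only: reads had no molecular identifiers, and a read that covers several cytosines counts several times.

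Over all 42987 regions the median level was 90.3% in BMM (quartiles 85.7 and 94.7), 56.9% in pOC (50 and 63.5) and 88.6% in mOC (82.6 and 93.8). The typical region thus did not become unmethylated. In 84.9% of the regions the pOC level lay between 40% and 70%, in 204 regions (0.475%) it was under 20%, and in 2 it was 0. In a bulk library a level of this size cannot tell apart a loss from part of the cells and a partial loss in all of them. The level was 100% in BMM in 3572 regions (8.31%), 100% in mOC in 3315 (7.71%) and 100% in both in 909.

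**Figure D1:**
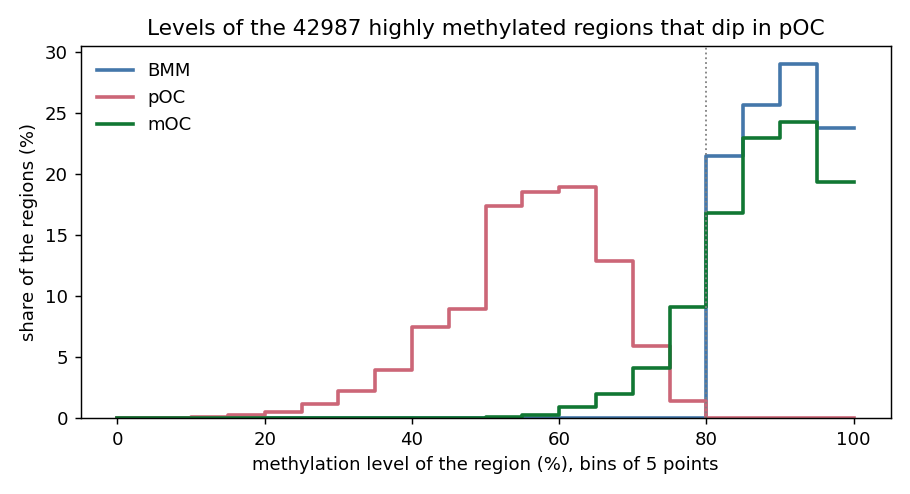
Share of the 42987 regions (vertical axis, percent) at each methylation level (horizontal axis, percent, bins of 5 points) in BMM, pOC and mOC, 1 library each. The pOC curve peaks between 50% and 65%, the BMM curve starts at the dotted threshold of 80% because the rule set it, and the mOC curve peaks between 90% and 95% like the BMM curve, lies below it in each bin from 80% and has a tail below 80%.

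The median pOC minus BMM difference was -32.8 points (quartiles -40 and -27.2), and the median mOC minus pOC difference was 29.9 points (25.1 and 36.5). Both steps were at least 20 points in every region, the smallest difference in the authors' tables. A fall of at least 50 points in pOC was seen in 3487 members (8.11%), against 5.56% of all 82392 shared regions. A rise of at least 50 points in mOC over pOC was seen in 2034 (4.73%), the same share as in all shared regions (4.73%). Both steps reached 50 points in 1303 members (3.03%), against 2.05% of all shared regions. The rule used these contrasts, so nothing is read from those shares.

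The size of the step went with the number of reads, which are summed over the cytosines of a region. Members had a median of 36 reads in BMM, 35 in pOC and 32 in mOC, or 6.63, 6.25 and 5.75 reads per cytosine, and at least 16 reads in each library. Where the shallowest of the 3 libraries had 16 to 23 reads, the median pOC minus BMM difference was -35.8 points. It was -32.0 points at 24 to 35 reads, -30.6 at 36 to 59 and -30.4 at 60 and more. The median number of cytosines in these bins rose as well, from 4 through 6 and 8 to 12. The bins therefore do not separate depth from the number of cytosines. The largest deposited p-value of a member was 0.04998 for pOC against BMM and 0.0916 for mOC against pOC. The parts of depth, of the number of cytosines and of any such limit on p-values in the size of the dip were not tested.

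The BMM threshold cut through a continuous range. The 3 members just inside it had 80.0% in BMM, and they lay in Snx10, in the myosin phosphatase gene Ppp1r12a (44.7% in pOC and 77.5% in mOC) and outside named genes on chromosome 7 (43.4% and 83.5%). The 3 regions just outside it had 79.9% in BMM. Of these, the region of Dennd2a had 59.8% in pOC and 80.3% in mOC, that of Fcho2 44.9% and 86.2%, and a region of chromosome 16 outside named genes 41.3% and 66.0%. The pOC levels ran from 43.4% to 47.8% in the 3 inside and from 41.3% to 59.8% in the 3 outside.

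All dips together, 42987 above the threshold and 35679 below it, formed a series by BMM level. Where BMM was between 20% and 30% the median pOC level was 2.17%, and between 50% and 60% it was 24.2%. Between 80% and 90% it was 52.9%, and between 90% and 100% it was 61.3%. The median difference in points changed little across the upper bins, from -30.3 at 50% to 60% to -33.3 at 90% to 100%. The pOC level as a share of the BMM level therefore ran from 8.21% in the lowest bin to 64.9% in the highest. The regions above the threshold kept more than 60% of their level in pOC at the median of each bin. Each listed step was at least 20 points, which bounds the pOC level from above, most tightly in the lowest bins. This bound shapes the series, so no trait of the members is read from it.

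**Figure D2:**
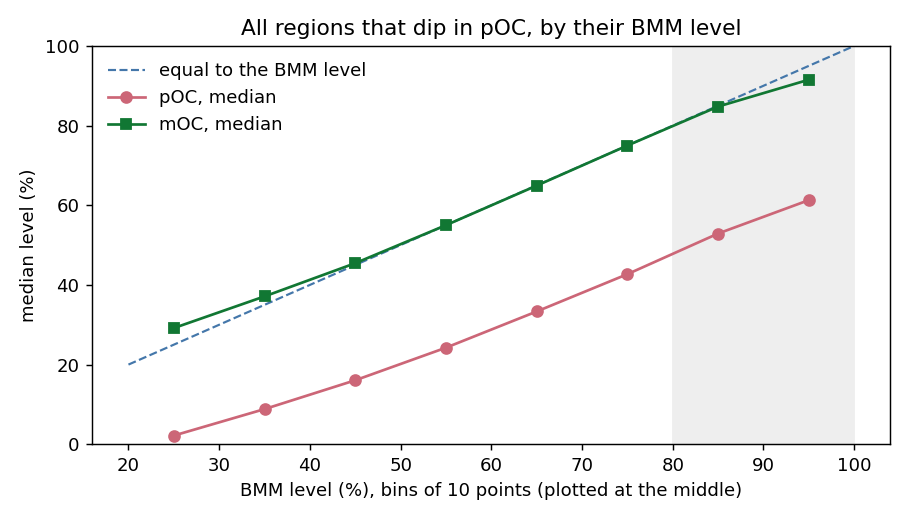
Median level in pOC and mOC (vertical axis, percent) of all shared regions that dip, by their BMM level (horizontal axis, percent, bins of 10 points); the grey area holds the 42987 highly methylated regions and the dashed line marks a level equal to BMM. The pOC medians run from 2.17% to 61.3%. The mOC medians follow the dashed line, above it in the lowest bin (29.2%) and below it in the highest (91.5%). Each listed step is at least 20 points, which bounds the pOC level from above.

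The return in mOC was close to complete at the median. The mOC level was at least 80% in 83.4% of the regions and within 10 points of BMM in 81.4%. Over all shared regions, which include lower BMM levels, these shares were 49.0% and 78.5%. A return to within 10 points was thus not particular to the members. The median mOC minus BMM difference was -2.01 points (quartiles -7.03 and 2.25). A mOC level at or above that of BMM was seen in 38.9% of the regions and 45.2% of all shared regions. The 95% interval of the difference held 0 in 94.3% of regions, lay below 0 in 2133 (4.96%) and above 0 in 299 (0.696%). Over all shared regions these shares were 95.2%, 3.27% and 1.52%. Depth limits this reading, since a difference of 10 points is within the counting error of a typical member. Only 25 regions stayed under 50% in mOC. The shortfall was larger where BMM was higher. The median mOC minus BMM difference was -0.31 points at BMM levels of 80% to under 85%, -0.73 at 85% to under 90%, -2.06 at 90% to under 95% and -4.55 at 95% to 100%. Over all dips the median difference was 3.09 points at BMM levels of 20% to 30% and -3.22 at 90% to 100%, so the trend was not particular to the members. The BMM level enters both sides of this comparison, and its part in the trend was not tested.

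**Figure D3:**
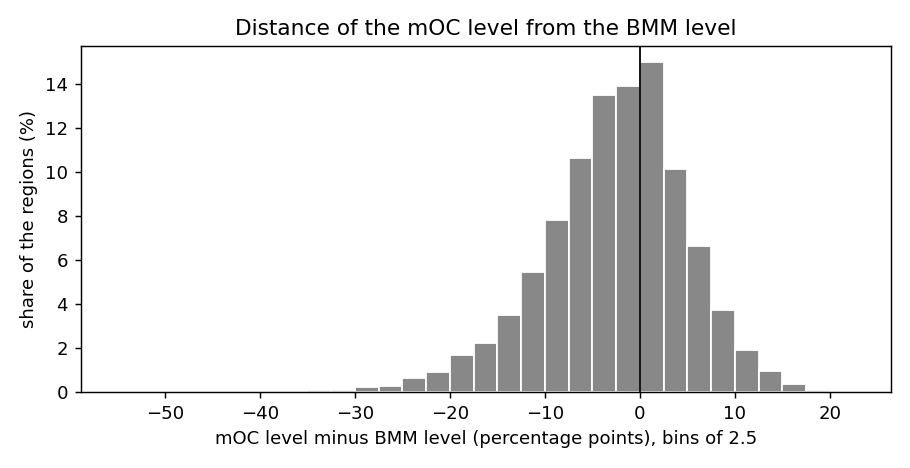
Share of the 42987 regions (vertical axis, percent) by their mOC minus BMM difference (horizontal axis, percentage points, bins of 2.5). The median is -2.01 points, the range runs from -51.7 to 20 points, and 20 points is the most that a BMM level of 80% allows.

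The authors' table of mOC against BMM listed 712 members with the same coordinates as lower in mOC (1.66%), against 1.21% of all shared regions. Among members with both deposited p-values at most 0.001 the share was 0.519%. The table listed 0 members as higher in mOC, against 0.556% of all shared regions, and a gain of at least 20 points is possible only for a member at exactly 80% in BMM. The 712 regions had medians of 92.9% in BMM, 38.5% in pOC and 67.0% in mOC, so they dipped deeper than the other members (57.1% in pOC) and regained 51.7% of the fall at the median. These regions were picked by low mOC levels. A listed loss of at least 20 points in mOC, on top of a return of at least 20 points, required a deep fall in pOC. The deeper dip and the partial return thus came with the choice, and the comparison is a description.

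Among the 712, the largest remaining loss in a gene with a symbol that is not a predicted one lay in Ebf2, which encodes a transcription factor of the early B cell factor family. Its region on chr14:67369201-67369400 had 97.2% in BMM (85.5 to 99.9, 36 reads), 22.9% in pOC (10.4 to 40.1, 35 reads) and 45.6% in mOC (34.3 to 57.2, 79 reads). The mOC minus BMM difference was -51.7 points (95% interval -62.4 to -35.9). In Fam149b (chr14:20351601-20351800) 24 of 29 reads were methylated in BMM, 0 of 25 in pOC and 9 of 28 in mOC. The exact interval of the pOC level reached up to 13.7%, and 3 reads of 25 would be 12%. The cytochrome P450 gene Cyp2c23 had 90.0%, 12.5% and 38.9% in BMM, pOC and mOC, over 16 to 20 reads. The lipase gene Abhd12 had 97.4%, 17.5% and 50.0%, and Hnrnpa1, which encodes an RNA-binding protein, had 83.3%, 10.4% and 37.0%. All 5 genes, those with the largest such losses, were low in pOC and ended below the typical member in mOC (88.6%). The low levels at both stages came with their choice by low mOC levels. In points, the rise from pOC to mOC was 22.7 in Ebf2, 26.4 in Cyp2c23 and 26.6 in Hnrnpa1. It was 32.1 in Fam149b and 32.5 in Abhd12, and the median over all members was 29.9.

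At the other end, members stood above their BMM level by up to 20 points, the most the rule allows, and the 4 named here had 100% in mOC. Lin37, a subunit of the DREAM cell cycle complex, had 80.0% in BMM (66.3 to 90.0, 50 reads), 59.3% in pOC (45.7 to 71.9, 59 reads) and 100% in mOC (93.5 to 100, 55 reads). Mapkapk2, which encodes a kinase downstream of p38, had 80.6%, 35.3% and 100% over 31, 17 and 30 reads. Fam204a and the chaperone gene Dnajc16 had 48.1% and 55.6% in pOC. The interval of the mOC minus BMM difference held 0 in Fam204a (-2.34 to 39.1) and lay above 0 in the other 3.

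Most members lay in genes. Of the 42987 regions, 73.6% overlapped a RefSeq gene span (exact 95% interval 73.2 to 74.0), compared with 50.7% of the dips with BMM under 80%, 40.7% of the 3588 transient gains (higher in pOC than in both other stages) and 62.2% of all shared regions. Spans of protein-coding genes held 67.8% of members, 42.1% of the partial dips (those with BMM under 80%) and 31.4% of the gains. Seen from the genome, 64.2% of the shared regions in protein-coding spans were members, compared with 36.4% of those outside gene spans. Among the members themselves the share in genes was 65.7% at BMM levels of 80% to under 85%, 70.1% at 85% to under 90%, 77.1% at 90% to under 95% and 80.4% at 95% to 100%. Position was not part of the rule, but it went with the BMM level, which was, and the regions of a gene are not independent of each other, so these shares carry no test. Exons and introns were not placed.

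Few members lay at gene starts. Of those with a start in the RefSeq window table on their chromosome, 1.98% were within 1 kb of a start, 28.6% at 1 to 10 kb, 42.7% at 10 to 50 kb and 26.7% farther away. The transient gains had 51.8% farther than 50 kb. The median distance was 21.4 kb for members, 30.0 kb for partial dips, 54.1 kb for gains and 25.5 kb for all shared regions. Only 121 members (0.291%) overlapped a start window, a share near that of all shared regions (0.318%). They dipped like the other members, with medians of 89.1% in BMM, 57.8% in pOC and 88.0% in mOC.

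**Figure D4:**
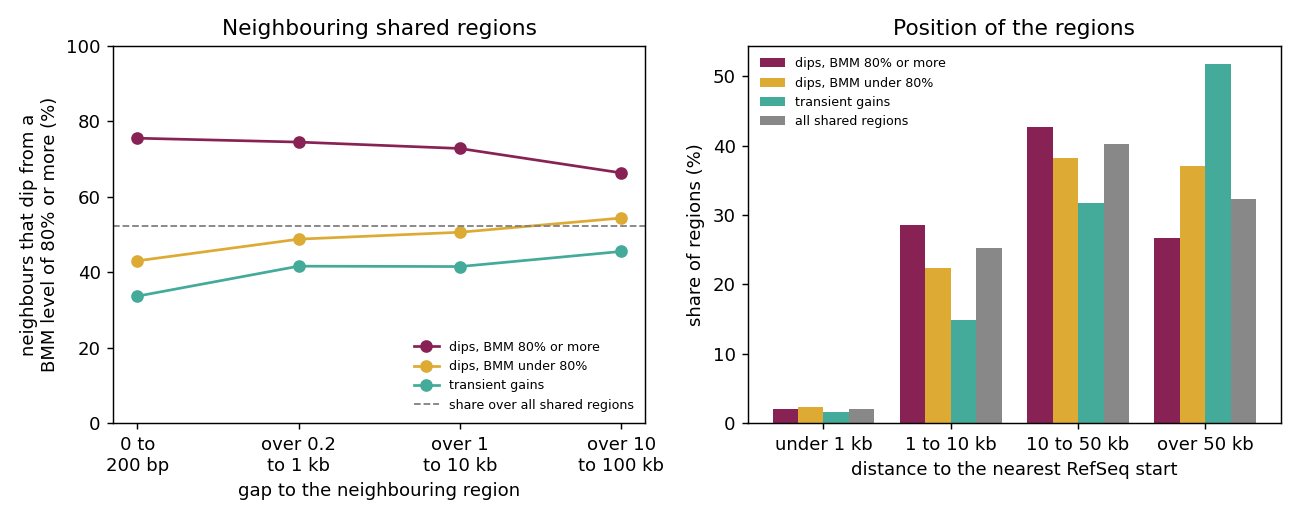
Left, share of neighbouring shared regions that are highly methylated dips (vertical axis, percent) by the gap between the pair (horizontal axis), around highly methylated dips, partial dips and transient gains; the dashed line is the 52.2% over all shared regions. Right, share of each class (vertical axis, percent) by distance to the nearest RefSeq start (horizontal axis). Neighbours of highly methylated dips are such dips in 75.5% of pairs with gaps of 0 to 200 bp and in 66.3% with gaps over 10 and up to 100 kb, and gains lie farthest from gene starts.

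The 127 start windows that a member overlapped were poor in CG. They held a median of 4 CG pairs per 300 bases, against 7 over all 32851 windows, and 2.36% of them held 15 pairs or more, against 34.6% of all windows. Windows that overlapped any of the shared regions also had a median of 4 pairs, so the low CG content was shared by all listed regions at gene starts. The AP-1 motif TGANTCA, searched on both strands, was found in 9.45% of the 127 windows, 7.81% of all windows and 10.3% of windows with any shared region. The NFAT core TGGAAA was found in 33.1%, 21.4% and 31.4% of them, and the E-box CATGTG in 21.3%, 14.2% and 21.4%. The PU.1 core GAGGAA was in 23.6%, 28.3% and 27.7%, the RUNX motif TGTGGT in 21.3%, 16.8% and 19.6%, and the E-box CACGTG in 5.51%, 7.15% and 4.43%. The C/EBP motif TTGCGCAA was in none of the 127 windows. Shares in windows with a member were within a few points of those with any shared region, and a match of letters is not a binding site.

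The members held few cytosines, with a median of 5 per 200 bp against 6 over all shared regions. The rest of the genome was not counted, so this is not a comparison with its CG content. A region was 1 bin of 200 bp in 95.8% of cases and held the minimum of 4 cytosines, 2 CG pairs on both strands, in 47.3% (all shared regions 45.9%). At least 10 cytosines per 200 bp were found in 9.68% of members and 10.7% of all shared regions, and at least 20 in 101 members. The pOC level was similar at all densities, but the fall was larger in the sparsest regions. The median pOC minus BMM difference was -34.4 points at 4 to under 6 cytosines per 200 bp. It was -31.6 at 6 to under 8, -30.5 at 10 to under 20 and -30.3 in the 101 densest. The median pOC level was 55.6% at 4 to under 6 cytosines per 200 bp, 57.8% at 6 to under 8, 58.3% at 8 to under 10, 58.1% at 10 to under 20 and 56.9% in the 101 densest.

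The 6 members with the most cytosines show the dense end. The region chr13:51032604-51033003, outside named genes, held 21 CG pairs and had 88.1% in BMM (82.6 to 92.4, 185 reads), 66.4% in pOC (60.2 to 72.2, 250 reads) and 88.4% in mOC (84.3 to 91.7, 310 reads). Its mOC level differed from BMM by 0.28 points (95% interval -5.34 to 6.56). Ikbip, whose product binds the kinase IKK, had 83.6%, 55.7% and 84.3% over 20 pairs. A region of chr12:99645401-99645800, also outside named genes, had 84.8% (79.6 to 89.0), 46.9% (43.2 to 50.6, 706 reads) and 74.7% (68.7 to 80.1) over 18 pairs, and stayed 10.1 points below BMM in mOC (-17.2 to -2.92). The other 3, in Prr5l, Nsa2 and Bcar3, were also among the regions with the most reads.

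Regions with many reads give the narrowest intervals, and the 8 members with the most reads in genes with a symbol that is not a predicted one are given here, 1 per gene. The region of the pseudogene Pisd-ps1 had 2636 reads and 43.9 reads per cytosine, far above the median of about 6, and stood at 92.6% in BMM (90.8 to 94.2), 70.1% in pOC (66.8 to 73.2) and 92.7% in mOC (90.8 to 94.3). Whether reads of similar copies elsewhere were placed there was not tested. Nsa2, a gene of ribosome biogenesis, had 86.8% (82.3 to 90.5, 287 reads), 49.4% (44.4 to 54.4, 401 reads) and 78.1% (73.0 to 82.6, 301 reads) on chr13:97135204-97135803. It stayed below BMM in mOC by an interval of -14.8 to -2.52 points. Bcar3, a signalling adaptor gene, had 92.2%, 66.0% and 90.2%, and Dph5, an enzyme of diphthamide synthesis, 87.9%, 62.8% and 89.3%. Hjurp, which encodes the chaperone of the centromere histone, had 91.1%, 62.5% and 92.3% at 17.7 reads per cytosine. Prr5l, a gene of mTORC2, had 88.6%, 63.6% and 86.9%, and the phosphatase gene Cdc14a 94.1%, 65.1% and 88.3%. The pseudogene Ppp1r2-ps5 had 85.2%, 51.6% and 75%. In each of these 8 the pOC interval lay below both others, a direction that the rule required. In Nsa2, Ppp1r2-ps5 and Cdc14a the mOC minus BMM interval lay below 0.

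The deepest dips rested on few reads. Taking the smaller of the fall and the return, the 10 deepest members had 78.5 to 88.2 points and 53 to 95 reads in the 3 libraries together, and 5 of them lay in a gene with a symbol that is not a predicted one. Among members in such genes, the 10 deepest, at most 1 per gene, had 53 to 89 reads over 2 or 3 CG pairs. Mcm5, a subunit of the replicative helicase, had 19 of 19 methylated reads in BMM, 3 of 17 in pOC and 17 of 17 in mOC. Hgsnat, a lysosomal enzyme of heparan sulfate breakdown, had 23 of 23, 3 of 22 and 23 of 24. Daam1, a formin that nucleates actin, had 29 of 32, 1 of 19 and 20 of 25, with a pOC level of 5.26% (0.133 to 26.0). The centromere protein gene Cenpp had 96.9%, 10% and 91.3%, the centrosome genes Cep95 and Cep112 11.5% and 23.5% in pOC, and the BMP receptor gene Bmpr1a 13.6%. Lingo1, Pam and the pseudogene Pisd-ps2 had 8%, 23.5% and 10% in pOC. All 10 had at least 80% in mOC. Their intervals are wide at this depth, and they were picked for their extreme values.

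Genes of osteoclast differentiation and function held 76 members in 22 of 35 genes, and 25 of the 35 had a shared region. The members made up 75.2% of the shared regions in their spans (all protein-coding spans 64.2%). The gene lists were put together with earlier results of these data known, and these shares are a description. Mitf, a transcription factor that acts with the osteoclast regulator Nfatc1, held 18 members of 21 shared regions, Itgav 8 of 9, Cd109 7 of 10, Sh3pxd2a 7 of 9 and Snx10 6 of 6. Nfatc1 itself held 2 of 2, with medians of 94.3% in BMM, 66.5% in pOC and 90.5% in mOC. Tnfrsf11a, which encodes RANK, held 3 of 4, with 80.5%, 40.9% and 83.3%. The 1 member in Clcn7, the chloride transporter of the resorbing membrane, had 88.5%, 31.8% and 59%. Its mOC minus BMM difference was -29.5 points. The resorption proteases Ctsk and Mmp9 and the fusion gene Dcstamp held 0 shared regions.

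For single genes the member with the most reads is given. Reads are summed over cytosines, so such a member can have many CG pairs rather than greater depth. Snx10, a sorting nexin needed for the resorbing membrane, had 80.0% in BMM (73.9 to 85.2, 205 reads), 47.8% in pOC (40.9 to 54.9, 207 reads) and 71.9% in mOC (65.9 to 77.4, 249 reads) on chr6:51554801-51555200. Its mOC minus BMM difference was -8.11 points (-15.8 to -0.157). Itgav, the integrin subunit of the sealing zone, had 93.3% (85.9 to 97.5), 60.3% (52.0 to 68.1) and 88.0% (79.6 to 93.9) on chr2:83782402-83782601. Mitf (chr6:98018601-98018800) had 87.3%, 50.7% and 72.3% over 63, 73 and 65 reads, 15 points below BMM in mOC (-28.4 to -0.97). Of these, the interval of the difference left out 0 in Snx10 and Mitf, ending close to it in both, and held it in Itgav. A read that covers several cytosines counts several times, so such narrow margins are not firm. Ppargc1b, a coactivator of mitochondrial biogenesis, had 89.3%, 55.1% and 91.6%, with 16 CG pairs in 200 bp. The repressor gene Prdm1 had 87.7%, 67.4% and 91.4%, and the AP-1 factor gene Jdp2 89.5%, 67.9% and 97.3%.

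Negative regulators of osteoclast formation held 51 members in 11 of 20 genes (71.8% of their shared regions), and 12 of the 20 had a shared region. Foxo3, a FoxO transcription factor, held 11 of 11 and Traf3, which restrains non-canonical NF-κB signalling, 11 of 13, while Rbpj and Zbtb46 held 2 of 7 each. The most-read member of Foxo3 (chr10:42221201-42221400) had 93.7%, 55.2% and 86.5% in BMM, pOC and mOC, over 63, 58 and 74 reads. That of Traf3 had 95.1%, 73.0% and 97.7%, and that of Foxo1 90.9%, 62.9% and 100%. Lgr4, a receptor that also binds RANKL, had 88.7% (77.0 to 95.7), 44.7% (33.3 to 56.6) and 70.8% (58.9 to 81.0) on chr2:109955802-109956001. Its mOC minus BMM difference was -17.8 points (-30.7 to -3.29), the largest shortfall among the most-read list members named here. Bcl6, a transcriptional repressor, had 88.7%, 66.1% and 88.6%, and Inpp5d, which encodes the phosphatase SHIP1, 100%, 78.7% and 100%.

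RANK, NF-κB, MAPK and calcium signalling genes held 113 members in 27 of 40 genes (78.5% of their shared regions). Of the 40, 28 had a shared region. Itpr2, a calcium release channel, held 18 members of 25 shared regions, Ppp3ca, the calcineurin catalytic subunit, 17 of 18, and Plcg2, the phospholipase upstream of calcium release, 15 of 15. Ppp3ca (chr3:136672201-136672600) had 93.4% (87.9 to 97.0, 137 reads), 64.5% (56.7 to 71.7, 166 reads) and 93.6% (88.2 to 97.0, 141 reads). Its levels in BMM and mOC differed by 0.19 points. Nfkb1, the precursor of the NF-κB subunit p50, had 88.3% (81.4 to 93.3), 51.5% (42.7 to 60.3) and 75.2% (67.1 to 82.2) on chr3:135663801-135664000, and stayed 13.1 points below BMM in mOC (-22.1 to -3.77). The kinase gene Syk had 85.7%, 53.4% and 76.5%, and Map2k1, which encodes MEK1, 81.8%, 55% and 85.7%. Plcg2 had 80.6%, 48.7% and 79.1%, and the JNK2 gene Mapk9 93%, 66.7% and 90.2%. The adaptor gene Traf6, which binds RANK, held 2 members of 2 shared regions, with medians of 94.8%, 59.5% and 96.7%.

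Macrophage identity genes held 28 members in 10 of 24 genes (70% of their shared regions), and 14 of the 24 had a shared region. Mrc1, the mannose receptor, held 6 of 8, Adgre1, which encodes F4/80, 5 of 7 and Csf1r, the M-CSF receptor, 1 of 2. Stat6, a transcription factor of interleukin 4 signalling, had 82.4% (71.2 to 90.5), 47.0% (34.6 to 59.7) and 86.1% (76.5 to 92.8) in its most-read member. The chemokine receptor gene Cx3cr1 had 89.3%, 59.3% and 96.9%, and Tlr2, a receptor for bacterial lipoproteins, 89.8%, 56.7% and 93.1%. Mertk, a receptor for the uptake of dead cells, had 84.7%, 55.6% and 86.2%, Irf5 89.4%, 64.7% and 87.8%, and Itgam, which encodes CD11b, 88.9%, 57.5% and 97.4%. None of these 6 had a mOC minus BMM interval that left out 0.

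DNA methylation genes held 38 members in 14 of 21 genes (80.9% of their shared regions), and 14 of the 21 had a shared region. Tet3 held 7 members of 8 shared regions, Dnmt3a 6 of 7, the methyl-CG reader gene Mbd2 6 of 6, Tet2 2 of 4 and Tet1 1 of 4. Dnmt3a (chr12:3912601-3913000) had 83.8% (77.4 to 89.1, 167 reads), 52.8% (45.2 to 60.3, 178 reads) and 86.8% (81.1 to 91.3, 189 reads). Dnmt1 (chr9:20950201-20950400) had 91.7%, 47.1% and 92.8% over 36, 34 and 69 reads. Tet3 had 90.1%, 65.9% and 92.0%, Tet2 83.0%, 62.7% and 87.5%, Uhrf2 91.7%, 66.7% and 91.0%, and Idh1, an enzyme that makes the cofactor of the Tet enzymes, 95.7%, 60% and 100%. These levels are those of DNA within the genes and say nothing of how much of each enzyme was present.

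Across these 30 most-read list members the pOC level ran from 44.7% (Lgr4) to 78.7% (Inpp5d). The pOC and BMM intervals did not overlap in 26 of them, and overlapped in Bcl6, Irf5, Tet2 and Uhrf2. The pOC and mOC intervals did not overlap in 27, and overlapped in Mitf, Bcl6 and Irf5. The rule required the direction of both steps, so these counts are a description. The mOC level was above that of BMM in 17, below it in 12 and equal in 1. The mOC minus BMM interval left out 0 in 4, Snx10, Mitf, Lgr4 and Nfkb1, each lower in mOC.

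**Figure D5:**
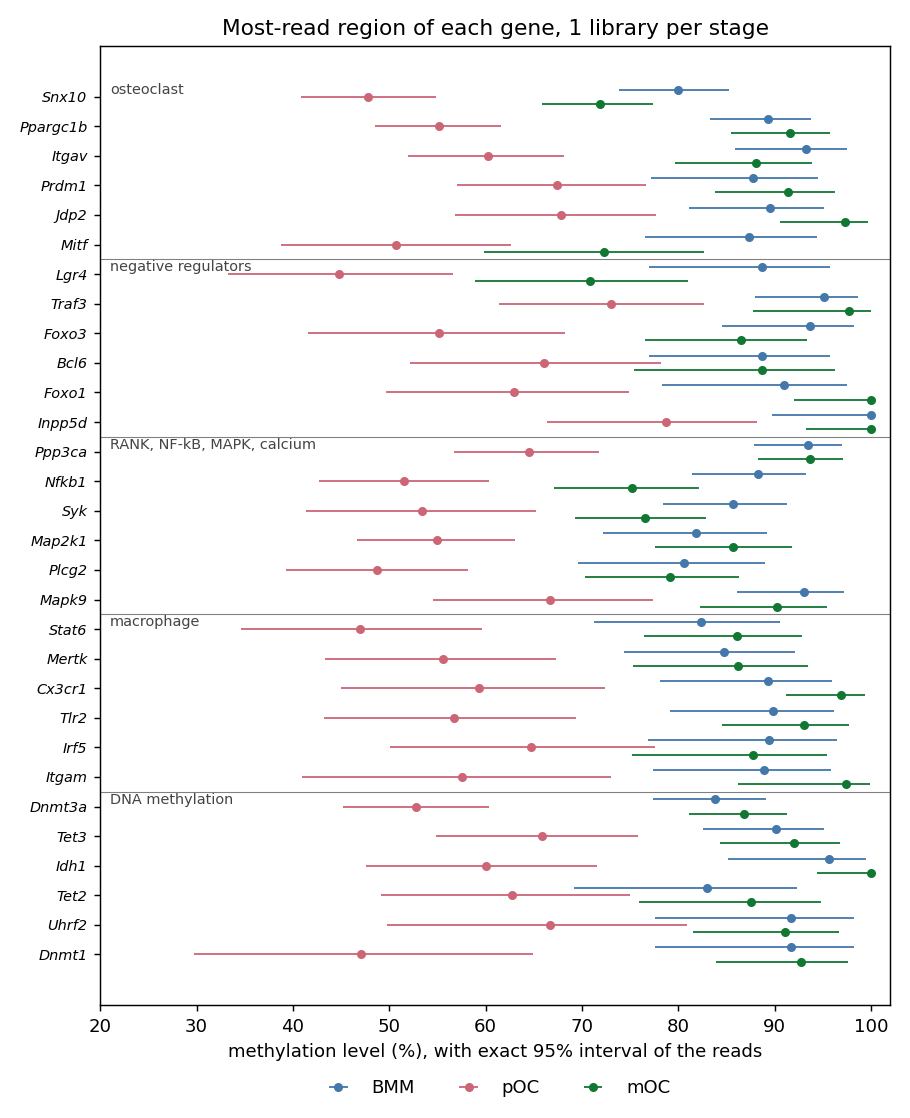
Methylation level (horizontal axis, percent) of the most-read member of 30 genes from 5 lists in BMM, pOC and mOC, 1 library each; lines are exact 95% intervals of the reads. Every pOC point lies left of its BMM and mOC points because the rule required it, and pOC levels run from 44.7% in Lgr4 to 78.7% in Inpp5d.

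Genes of cell fusion and the cytoskeleton held 196 members in 29 of 37 genes (74.0%), and 32 of the 37 had a shared region. Members were 42 of 51 shared regions in Vav3, a nucleotide exchange factor, 25 of 31 in the linker gene Dst and 20 of 27 in Macf1. V-ATPase and lysosome genes held 32 members in 15 of 26 genes (82.1%), and 16 of the 26 had a shared region. In the proton pump subunit gene Atp6v0a1, 5 of 6 shared regions were members. Lists of other cell types held few shared regions, 5 for T cells, 15 for B cells, 3 for neutrophils and 1 for erythroid cells. Of these 0, 5, 2 and 0 were members. The 5 of the B cell list lay in Ebf1 (3 of 11) and Pax5 (2 of 4), long genes that make lineage transcription factors.

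Members were spread over many genes. Of 21896 protein-coding genes, 11297 held a shared region and 8920 (40.7% of the 21896) at least 1 member. Exactly 1 member lay in 3491 of the 8920, and 10 or more in 537. The gene with the most was Lrba, a vesicle trafficking gene on chromosome 3, with 77 of 95 shared regions and medians of 90.9%, 59.6% and 89.8% in BMM, pOC and mOC. Within it the pOC levels of members ran from 33.3% to 73.3%. Pde4d, a cyclic AMP phosphodiesterase gene, held 61 of 76, Foxp1, a forkhead transcription factor gene, 47 of 49, the methyltransferase gene Smyd3 44 of 51 and Btbd9 43 of 47. Their median pOC levels lay between 55.6% and 59.6%. Per length, among genes with at least 10 members and a symbol that is not a predicted one, the most were in Hsd17b7, a gene of cholesterol synthesis, with 10 members in 10 shared regions, or 50.7 per 100 kb. The kinetochore gene Nuf2 held 12 of 12, the scaffold gene Iqgap3 12 of 12, the G protein gene Gnai3 11 of 12 and Usp53 15 of 17. Hsd17b7 and Nuf2 lie between 160 and 170 Mb of chromosome 1, a block that held 418 members. Iqgap3, Gnai3 and Usp53 lie on chromosome 3, as Lrba does. The part of these locations in the ranking was not tested.

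The classes of neighbouring regions were counted by their distance. Among neighbours at 0 to 200 bp of a member 75.5% were members, over 200 bp and up to 1 kb 74.5%, over 1 and up to 10 kb 72.8%, and over 10 and up to 100 kb 66.3%. Around partial dips the shares were 43.0%, 48.8%, 50.6% and 54.4%, and around transient gains 33.7%, 41.6%, 41.5% and 45.5%. Runs of adjoining members were short. In runs with gaps of at most 200 bp there were 1238 members (2.88%, all shared regions 3.14%), in 596 runs of 2, 14 of 3 and 1 of 4. The run of 4 lay in Ect2, a gene of cell division, on chr3:27145801-27147600, with 83.5% of 315 reads in BMM, 48.8% of 287 in pOC and 83.4% of 205 in mOC. Of the runs of 3, that in Atxn7l1 (chr12:33374401-33375400) had 94.4%, 63.3% and 92.9%, and that in Trim24 (chr6:37952601-37953600) 88.6%, 55.7% and 79.5%.

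On the autosomes, 49.9% to 55.8% of the shared regions were members, on chromosome X 193 of 635 (30.4%) and on chromosome Y 1 of 36. Chromosome 3 held the most members, 3569, and also the most shared regions, 6759. Its share of members was thus 52.8%, near the 52.2% over all shared regions. All of the 8 windows of 1 Mb with the most members lay on it. The window from 95 to 96 Mb held 122 members of 168 shared regions, and the median window of the genome held 15. Between 80 and 120 Mb of chromosome 3 lay 1730 members. They had 7.75, 7 and 6.25 reads per cytosine in BMM, pOC and mOC, compared with 6.5, 6.25 and 5.75 on the other autosomes. Their levels were like those elsewhere, with medians of 90.5%, 58.5% and 88.9%, compared with 90.3%, 56.9% and 88.6%. The 10 Mb blocks of chromosome 3 from 80, 90 and 100 Mb held 502, 472 and 550 members at 7.67, 7.65 and 7.85 reads per cytosine in BMM. The block from 70 Mb held 138 at 7.67 and that from 110 Mb held 206 at 7.75. The next richest block of the genome, from 160 to 170 Mb of chromosome 1, held 418 at 8.25. Shared regions were not counted by block, so no share of members is read from the block counts. The part of depth in these numbers was not tested.

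The member of 364 reads on chr6:30741201-30741400 contained the hairpin of Mir335, a microRNA gene inside the imprinted gene Mest (chr6:30741299-30741396, plus strand). It was picked after the overlaps of members with RefSeq hairpins were seen, because it holds the whole hairpin and 4 of its CG pairs. Its level was 89.9% in BMM (81.7 to 95.3, 89 reads), 63.2% in pOC (54.8 to 71.1, 144 reads) and 84.7% in mOC (77.4 to 90.4, 131 reads). The level is that of all 6 CG pairs of the region. The RefSeq sequences follow, with CG in capitals in the hairpin and the seed (bases 2 to 8) in capitals in the mature forms.
Mir335 hairpin: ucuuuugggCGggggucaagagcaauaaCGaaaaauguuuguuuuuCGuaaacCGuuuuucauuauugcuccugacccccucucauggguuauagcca
mmu-miR-335-5p: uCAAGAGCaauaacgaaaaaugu
mmu-miR-335-3p: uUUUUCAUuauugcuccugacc
The regions that reached the hairpins of Mir1960 and Gm51280 covered only their ends, and had 56.9% and 55% in pOC against 93.2% and 88.9% in BMM.

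Not every highly methylated region that was lower in pOC returned in the listed form. The table of pOC against BMM held 127107 regions with at least 80% in BMM and a lower level in pOC. Of these, 33.8% were the members described here, and 84056 (66.1%) were not listed with the same coordinates for mOC against pOC. Among the 84056, 7601 (9.04%) were listed for mOC against BMM. For the rest, listed regions that overlap without having the same coordinates were not followed, and their level in mOC was not analysed here.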

How the data were processed

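Per the file headers, each of the authors' 3 deposited tables compares a pair of libraries and gives, for every CG region, counts of methylated and of all reads, the level as a fraction, the cytosines covered and a p-value. The columns name hours and were matched to the stages by them. The submitters' processing notes name GRCm38 with FastQC, HISAT2 and StringTie. The bisulfite aligner, conversion rate and region caller are not given in the labels or headers.

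Levels were recomputed from the counts where coordinates were identical in the tables of pOC against BMM and mOC against pOC. Listed regions differed by at least 20 points and had at least 4 cytosines and 16 reads per library, so a minimum of 10 reads removed none. Deposited p-values of members reached 0.04998 for pOC against BMM and 0.0916 for mOC against pOC. The test behind them is not given. No test was run. Exact intervals (scipy 1.17.1, Python 3.11.15) and Newcombe intervals were checked on simulated data. Gene spans, start windows (none for chromosome 18) and microRNAs came from RefSeq tables of GRCm38.p6, without exons. Of 44 shared regions inside a start window, 43 had 2 cytosines per CG pair of the RefSeq sequence. All 224 entries of 11 gene lists matched by symbol.

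The members and lists were chosen with earlier results of these data known. Named regions were the most-read member of the 6 most-read genes of 5 lists, the 6 members with most cytosines and, in genes with a symbol that is not a predicted one and at most 1 per gene, the 10 with the largest smaller step (fall or return), the 8 with most reads, the 5 lowest mOC minus BMM differences listed by the authors and the 5 highest; further the 6 most-read at gene starts, and 3 on either side of the threshold. The 5 highest came from all members, since the table of mOC against BMM listed none. Of these, 1 is not reported here. Genes named by their counts were chosen after their values were seen. Alternatives changed the BMM threshold, minimum reads, p-value, overlap and step size.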

Additional observations from a re-analysis of the deposited data

How the results depend on the processing

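The number of members depended on the thresholds. It was 42987 as reported, 22717 with BMM of at least 90%, 18850 with at least 30 reads in each library, 4621 where both deposited p-values were at most 0.001 and 17779 with both steps of at least 30 points. It stayed within 1.5 times under the other alternatives. The median pOC level was 56.9% as reported, 57.5% with at least 20 reads, 58% with at least 30, 49.5% at a p-value of at most 0.001 and 56.3% as a read-weighted mean. The median mOC minus BMM difference was -2.01 points as reported, -1.90 with at least 30 reads, -0.23 at a p-value of at most 0.001 and -2.19 with levels shrunken by 1 methylated read in 2. The share listed as lower in mOC than in BMM was 1.66%, 0.519% at a p-value of at most 0.001 and 1.79% counting any overlap. The share in gene spans was 73.6%, 74.5% with at least 30 reads, 75.4% at a p-value of at most 0.001 and 79.1% with spans extended by 2000 bp. The median number of cytosines per 200 bp was 5, and 8 with at least 30 reads or a p-value of at most 0.001. The share of members in runs was 2.88%, 2.45% with at least 20 reads, 1.61% with at least 30, 0.649% at a p-value of at most 0.001 and 2.72% for single bins. The subsets by reads and p-value hold fewer regions by construction. Causes of the other shifts were not tested. In all 77 named regions the shrunken pOC level lay within its interval. No paired analysis was possible because each stage had 1 library.

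With 32 to 36 reads at the median, single regions cannot resolve differences of a few points. Every value of a stage rests on 1 library, so leaving a library out was not possible, and the spread between cultures or mice is unknown.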
